A study of Mus musculus with 6 samples.

Results

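The genes described here are the 4 members of the early growth response family, Egr1, Egr2, Egr3 and Egr4, and the Nab1 and Nab2 genes for their corepressors. They were taken by symbol from the table of read counts, in which they are 6 of 37411 gene rows. All 6 had enough reads to be tested. The cultures were hippocampal neurons of newborn CD-1 IGS mouse pups, kept for 16 days in vitro. Forskolin, which activates adenylyl cyclase and so raises cyclic AMP, had been given at 50 µM for 30 min to 3 cultures (libraries 4, 5 and 6), and the solvent dimethyl sulfoxide (DMSO), at the same volume and for the same time, to 3 others (libraries 1, 2 and 3). Values for single libraries are given in that order throughout. No genetic change or other agent is given for either group, and the labels do not say whether pups were pooled for a culture. They also do not say that the libraries came from separate preparations of cells, so that p-values measure the spread between these libraries, part of which may be technical.

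EGR proteins are zinc finger transcription factors that bind GC-rich sites. Their genes are immediate early genes: in neurons, calcium or cyclic AMP signals that reach CREB, and ERK kinase signals that reach SRF and its Elk partners, switch them on without new protein synthesis. Nab1 and Nab2 encode corepressors that bind EGR1, EGR2 and EGR3 and bring in the NuRD chromatin remodelling complex. Nab2 is itself known as a target of EGR proteins, which closes a negative feedback loop. Egr1 and Egr3 are known in hippocampus for their part in synaptic plasticity and memory, Egr2 for hindbrain patterning and for myelination by Schwann cells, and Egr4 is the least studied of the family.

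The start regions of some members hold short matches to the sites these signals act on. In the RefSeq promoter table (GRCm38.p6), 4 of the 6 members had an entry: Egr2, Egr4, Nab1 and Nab2. The 250 bases before each start were searched on both strands for the Egr site GCGTGGGCG, its looser form GCGNGGGCG, the cyclic AMP response element TGACGTCA, its core TGACG (which the full element contains) and the CArG box bound by SRF. Egr2 had 5 annotated starts. Shown first are the windows of Egr2 and Egr4, because they hold cyclic AMP core elements, in capitals, with the CArG box of Egr2 also in capitals. The Egr2 window shown, chr10:67537619-67537868 on the plus strand, lies immediately before one of these starts. Of its other windows, 2 largely overlap this one and hold the same matches, 1 holds only a different CArG box, and the one farthest upstream holds none of the motifs. The Egr4 window is chr6:85513590-85513839 on the minus strand.
Egr2: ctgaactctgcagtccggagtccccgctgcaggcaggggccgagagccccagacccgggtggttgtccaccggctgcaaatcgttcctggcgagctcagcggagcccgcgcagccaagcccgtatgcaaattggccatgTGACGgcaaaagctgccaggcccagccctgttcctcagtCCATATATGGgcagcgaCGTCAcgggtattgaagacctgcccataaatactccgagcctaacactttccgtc
Egr4: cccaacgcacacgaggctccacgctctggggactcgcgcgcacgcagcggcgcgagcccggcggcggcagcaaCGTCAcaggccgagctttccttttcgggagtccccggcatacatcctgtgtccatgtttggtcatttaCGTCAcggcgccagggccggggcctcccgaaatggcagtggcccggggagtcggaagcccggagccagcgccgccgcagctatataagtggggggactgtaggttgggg
In Egr2 the TGACG core stood at bases 111 to 107 and, on the other strand, at bases 55 to 51 before the start, with the CArG box between them at bases 72 to 63. The Egr4 window held the core at bases 177 to 173 and at bases 109 to 105, both on the other strand, and no CArG box. Among 32851 promoter windows of this length, 17.8% held TGACG and 1.47% a CArG box, whereas the full TGACGTCA was in 1.55% of them and in no member window.

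Nab1 was the member whose window held the Egr site. GCGTGGGCG occurred there 2 times, against 0.536% of all windows with at least 1 match, and the looser GCGNGGGCG a further time (4.70% of all windows). The 2 sites are shown in capitals in stretches of 25 bases, chr1:52500573-52500597 for the one on the opposite strand to the gene and chr1:52500541-52500565 for the other. In the GENCODE M21 annotation both stretches lie in the first exon of a Nab1 transcript.
Nab1 site 1: cccgcggcCGCCCACGCcgggatct
Nab1 site 2: tcggccgcGCGTGGGCGggagccgg
The window of Nab1 also held 1 TGACG core, and that of Nab2 held none of the motifs searched. These matches are descriptions of sequence; whether a factor bound there was not tested.

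All members but Nab1 are short genes. In GENCODE M21 (GRCm38, the build that the submitters' processing notes name) Egr1 lies on chromosome 18, Egr2 at chr10:67535475-67542188, Egr3 at chr14:70077203-70082614 and Egr4 at chr6:85511121-85513589. Nab1 lies at chr1:52457294-52500679 and Nab2 at chr10:127660918-127668568, and all 6 are protein-coding. The longest transcript of each Egr gene has 2 exons, whereas that of Nab1 has 8 and that of Nab2 has 7, beside a median of 7 among 15769 tested genes with annotation. The Egr genes span 2469 (Egr4) to 6714 (Egr2) bases, Nab2 7651 and Nab1 43386, against a median of 22085 for these tested genes. Their GC content differs more: 68.2% in Egr4 and 57.3% in Egr1, but 51.4% in Egr2 and 51.3% in Egr3. Nab2 has 60.1% and Nab1 47.2%, on either side of the median of 49.5%.

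Total counts per library ranged from 28342764 to 47548379. Mitochondrial ribosomal RNA took 14 to 23.7% of counts with DMSO and 26.9 to 33.3% with forskolin; its part in the results was not tested. Libraries were not alike in their cells. The summed level of 12 microglia markers, in CPM (reads scaled to a common library size), was 13.8, 10.3 and 7.27 with DMSO and 9.32 in library 6, but 203 and 373 CPM in libraries 4 and 5. All 12 markers in library 4 and 11 of 12 in library 5 lay above every DMSO library, against 2 of 12 in library 6, and none of the 12 was at 0 in every library. Of the 11 tested, 0 passed with edgeR, 10 were higher at an unadjusted p under 0.05 (10.6% of all genes), and DESeq2 called 10 higher (4.9% of all genes). The 12 neuron markers summed to 4248 to 5446 CPM in the DMSO libraries, 3258 and 3560 CPM in libraries 4 and 5 and 5098 CPM in library 6, so that the labelled cell type was present throughout. Rbfox3, which encodes the nuclear antigen NeuN, was called lower (log2 fold change -0.87, edgeR adjusted p = 0.0392), 1 of 12 neuron markers with edgeR. DESeq2 called 4 of the 12 lower, and edgeR without library 6 called 6. These 3 fits called 1.34%, 6.03% and 17.1% of all genes lower. Astrocyte markers were present as well, at 6936 to 8519 CPM in sum. Across genes, library 6 correlated most closely with DMSO library 3 (Pearson r of log2 CPM 0.983, against 0.943 and 0.940 with libraries 4 and 5). Results below are therefore given with all libraries and, where the call differs, without library 6 or without libraries 4 and 5. The fit without libraries 4 and 5 has a forskolin arm of 1 library (library 6), which is assumed to vary like the DMSO libraries, since these alone give the spread. In bulk RNA, more cells of one type and more RNA per cell cannot be told apart.

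Egr2 was the one member that passed the edgeR test with all 6 libraries, and it rose. With DMSO it had 327, 168 and 227 reads, or 10.2, 5.51 and 6.37 CPM. With forskolin it had 982, 1043 and 741 reads, or 20.9, 30.6 and 22.1 CPM. The groups did not overlap; library 1 was the highest without forskolin and library 5 the highest with it. The group means were 7.36 ± 2.50 and 24.5 ± 5.32 CPM (SD, n = 3 each), a 3.33-fold difference. The log2 fold change was 1.74 ± 0.28 (SE; edgeR quasi-likelihood test, Benjamini-Hochberg adjusted p = 0.0431), with an unadjusted 95% interval of 1.07 to 2.40. With edgeR, 0.172% of all 16233 tested genes passed as higher and 1.34% as lower (1.51% in all); among the members, 1 of 6 was higher and 0 of 6 lower, with 2 more higher (Egr1 and Nab1) and 0 lower at an unadjusted p under 0.05, a level that 10.6% of all genes passed as higher and 11.7% as lower, while DESeq2, which called 4.90% of genes higher and 6.03% lower, called Egr2 alone.

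Egr2 was also high in the forskolin library without the excess of microglia markers. In library 6, where their sum was within the DMSO range, Egr2 lay 1.59 above the DMSO mean on the log2 scale, against 1.502 in library 4 and 2.06 in library 5. Oligodendrocyte markers summed to 822 to 913 CPM with DMSO and to 1077, 1560 and 647 CPM with forskolin. Markers of vessels, meninges and Schwann cells summed to 123 to 233 CPM and to 306, 138 and 108 CPM. In library 6 both sums were below the DMSO range. The part of these cells and of microglia in the level of Egr2 was not tested. Without libraries 4 and 5 its log2 fold change was 1.62 (edgeR adjusted p = 0.107 for library 6 alone against the DMSO libraries, with 0.555% of genes called), and without library 6 it was 1.79 (edgeR adjusted p = 0.00778; 16.5% of genes were then called higher). With upper-quartile factors, where 0.628% of genes were called, Egr2 had 1.78 and did not pass (edgeR adjusted p = 0.0543), nor did it with the trend on GC content removed (1.73, edgeR adjusted p = 0.137). With library quality weights, Egr1 and Nab1 passed beside Egr2. Leaving out library 1, 2, 3, 4 or 5 gave log2 fold changes of 1.58 to 2.07 with edgeR adjusted p-values of 0.131 to 0.309, in fits where 0 genes in all were called and 1945 to 3216 had an unadjusted p under 0.05. In the authors' deposited table for this comparison, made from these libraries, Egr2 is the one member among 132 genes. It has a log2 fold change of 1.55 there, a standard error of 0.271 and an adjusted p of 7.86e-07, and the smallest fold change listed in the authors' deposited table is 1.501. The other members had smaller changes in every fit here, so their absence from that list is no separate evidence.

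**Figure D1:**
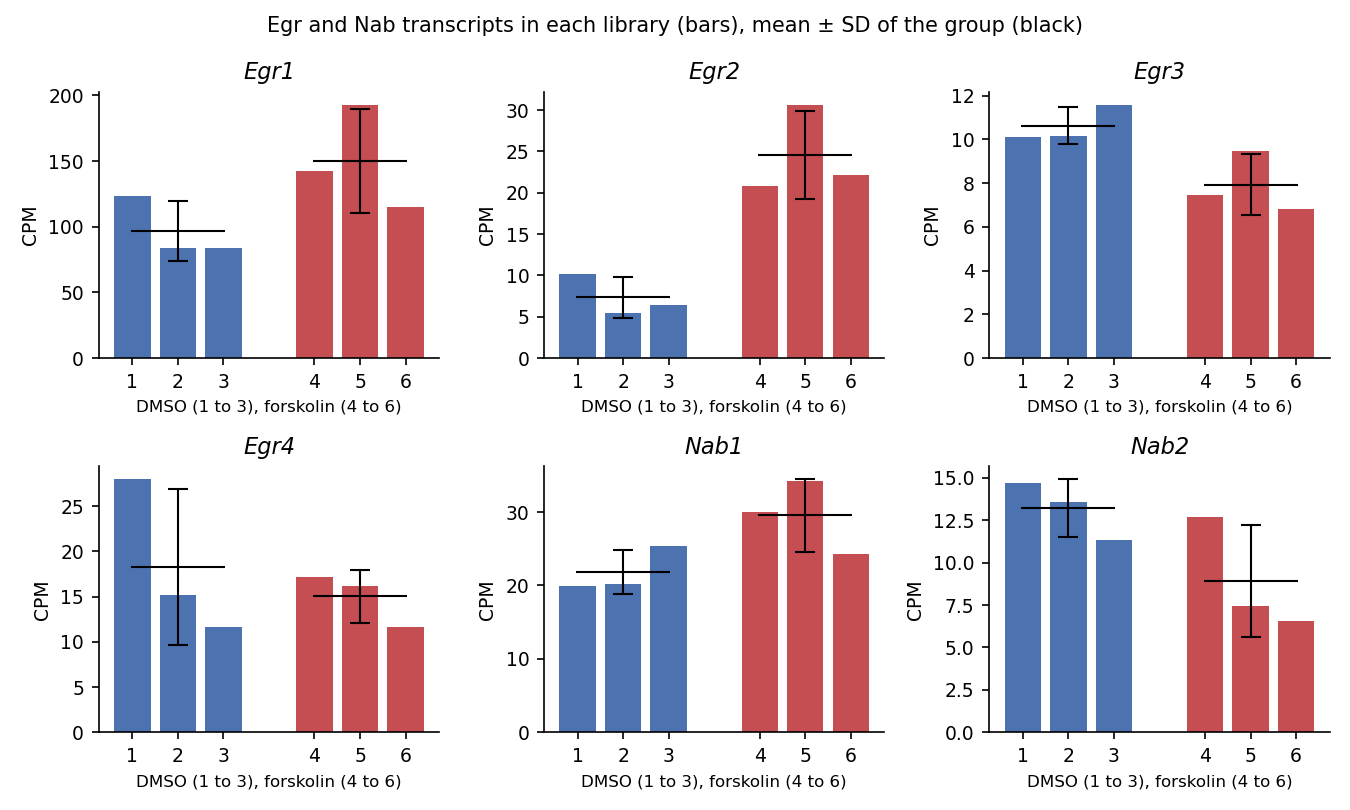
Level of each member in each library in CPM (vertical axes start at 0 and differ between panels), with DMSO libraries 1 to 3 in blue and forskolin libraries 4 to 6 in red; black lines show the group mean and SD (n = 3). The red bars of Egr2 all end above the blue ones and those of Egr3 all below, while the groups overlap for the other members.

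Egr1, the most abundant member and the family's best known activity marker, was higher in 2 of 3 forskolin libraries. It had 123, 83.4 and 84.2 CPM with DMSO and 142, 193 and 115 CPM with forskolin. Library 6 was below DMSO library 1, so that the groups overlapped. The means were 97.0 ± 22.9 and 150.2 ± 39.5 CPM (SD, n = 3), and the log2 fold change of 0.63 ± 0.24 (SE) did not pass with all libraries (edgeR adjusted p = 0.196; unadjusted 95% interval 0.06 to 1.20). Without library 6 its fold change was 0.77 on the log2 scale and passed (edgeR adjusted p = 0.0346), in a fit that called 33.6% of all genes, 16.5% as higher and 17.1% as lower. With library quality weights, where 41.9% of genes were called, it was 0.87 and passed too (limma adjusted p = 0.0130). Without libraries 4 and 5, that is for library 6 alone, its log2 fold change was 0.28 (edgeR adjusted p = 0.599). The microglia markers were high in libraries 4 and 5, where Egr1 was highest; their part in its level was not tested.

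Egr3, which shares its DNA site with Egr1, was low in every forskolin library. It had 10.1, 10.2 and 11.6 CPM with DMSO and 7.46, 9.49 and 6.84 CPM with forskolin. The groups did not overlap, with library 5 close under the lowest DMSO value; 16.2% of all tested genes lay lower in the same way and 10.3% higher, so that 1 of 6 members on each side is near that background. The log2 fold change was -0.42 ± 0.18 (SE) and did not pass (edgeR adjusted p = 0.235; unadjusted 95% interval -0.86 to 0.02). Over the 18 alternatives it lay between -0.60 and -0.33, with adjusted p-values of 0.0817 to 0.480.

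Egr4 was the member that varied most between the DMSO libraries. It had 28, 15.2 and 11.6 CPM with DMSO, a coefficient of variation of 47.1%, and 17.2, 16.2 and 11.7 CPM with forskolin. All 3 forskolin libraries fell within the DMSO range. The log2 fold change was -0.28 ± 0.34 (SE; edgeR adjusted p = 0.643; unadjusted 95% interval -1.09 to 0.52). Its sign was not stable: the log2 fold change was 0.18 without library 1 (edgeR adjusted p = 0.714), 0.011 with library quality weights (limma adjusted p = 0.977), and 0.90 with the trend on GC content removed (edgeR adjusted p = 0.337). With that trend removed and library 6 left out it was 0.69 (edgeR adjusted p = 0.0706). Library 1 was also the highest DMSO library for Egr1 and Egr2, and for the sum of 11 rapid primary response genes, at 640 CPM against 325 and 294 in libraries 2 and 3.

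The corepressor genes lay on opposite sides of 0. Nab1 had 19.99, 20.1 and 25.3 CPM with DMSO and 29.99, 34.3 and 24.3 CPM with forskolin. Library 6 was below DMSO library 3, so that only libraries 4 and 5 stood above the DMSO range. The log2 fold change was 0.44 ± 0.17 (SE; edgeR adjusted p = 0.203). Without library 6 it was 0.54 and passed (edgeR adjusted p = 0.0312, where 16.5% of genes were called higher), but with the GC trend also removed it was 0.33 and did not pass (edgeR adjusted p = 0.0956). With quality weights it was 0.58 and passed (limma adjusted p = 0.0131), and for library 6 alone it was 0.20 (edgeR adjusted p = 0.629). Like Egr1, it was highest in the libraries rich in microglia markers, and their part in its level was not tested.

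Nab2, the corepressor gene known to be induced by EGR proteins, had 14.7, 13.6 and 11.3 CPM with DMSO and 12.7, 7.46 and 6.57 CPM with forskolin. Libraries 5 and 6 were below every DMSO library, and library 4 lay within their range. The log2 fold change was -0.57 ± 0.28 (SE; edgeR adjusted p = 0.274; unadjusted 95% interval -1.22 to 0.09). No forskolin library lay above the DMSO range. Leaving out 1 library gave -0.91 (without library 4) to -0.40 (without library 6), with upper ends of the interval from -0.40 to 0.35, and library 6 alone against the DMSO libraries gave -0.97 (edgeR adjusted p = 0.154). It was -0.16 after removal of the GC trend (edgeR adjusted p = 0.702). None of these passed. Nab2 overlaps Stat6 by 40 bases on the opposite strand, and it shares 1668 bases with Nemp1 (listed under its older symbol Tmem194) and 1646 with the antisense gene Gm16229. The strand setting of the counting is not given in the sources used here, so reads of these partners cannot be told apart from those of Nab2. Stat6 had 5.03, 2.56 and 1.82 CPM with DMSO and 8.90, 9.90 and 2.0 CPM with forskolin. Tmem194 had 5.72, 5.81 and 5.53 CPM with DMSO and 13.3, 9.40 and 5.55 CPM with forskolin, and Gm16229 had at most 8 reads in any library.

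**Figure D2:**
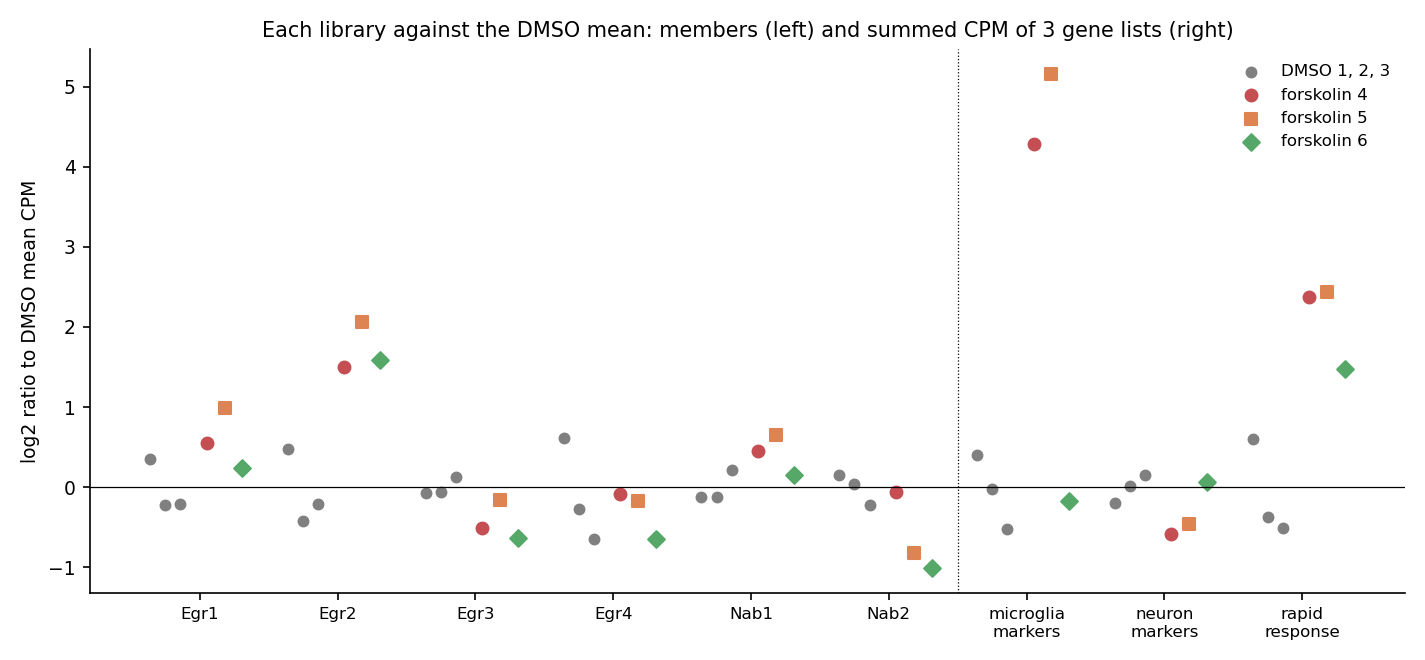
Log2 ratio of each library's CPM to the mean of the DMSO libraries, for the 6 members and, right of the dotted line, for the summed CPM of the microglia markers, neuron markers and rapid primary response genes; grey points are DMSO libraries 1 to 3 and coloured symbols forskolin libraries 4, 5 and 6. Egr2 is raised in library 6 (1.59), where the microglia markers are within the DMSO range. Egr1 and Nab1 are higher in libraries 4 and 5 than in library 6. The part of cell composition in these levels was not tested.

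Ratios between members within a library do not depend on how libraries are scaled, and they separated the groups for 6 of 7 pairs compared. Of these pairs 6 are drawn from the same 4 genes, and among single genes 10.3% separated the groups as higher and 16.2% as lower. The log2 ratio of Egr2 to Egr1 reads was -3.60, -3.92 and -3.72 with DMSO and -2.77, -2.65 and -2.38 with forskolin. The groups did not overlap, their means differed by 1.15, and library 6 had the highest ratio of all. The log2 ratio of Egr3 to Egr1 was -3.17 ± 0.39 with DMSO and -4.23 ± 0.14 with forskolin (SD, n = 3), a difference of -1.06, and that of Egr4 to Egr1 differed by -0.83. Relative to Egr2, Egr3 differed by -2.20 and Egr4 by -1.97. Each of these had an exact two-sided permutation p of 0.1, the smallest that 3 libraries against 3 can give, and an adjusted p of 0.117 over the 7 pairs. Egr4 to Egr3 was the pair whose groups overlapped (difference 0.23, exact permutation p = 0.7). The pairs with Egr4 shifted most when the GC trend was removed. Egr4 has a GC percentile of 99.8 among tested genes, where few genes guide that trend. Between fitted log2 fold changes, the difference of Egr4 from Egr1 was -0.91, and 0.04 once the GC trend was removed; from Egr2 it went from -2.02 to -0.83, and from Egr3 from 0.14 to 1.35. The other 3 kept to 1.11 and 0.87 (Egr2 to Egr1), -1.05 and -1.30 (Egr3 to Egr1), and -2.16 and -2.17 (Egr3 to Egr2).

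The corepressor pair also separated the groups. The log2 ratio of Nab2 to Nab1 reads was -0.44, -0.57 and -1.16 with DMSO and -1.24, -2.20 and -1.89 with forskolin. DMSO library 3 and forskolin library 4 nearly met, and the difference of the means was -1.05 (exact two-sided permutation p = 0.1, adjusted 0.117). Leaving out 1 library at a time gave differences of -1.32 to -0.84. Between fitted log2 fold changes the difference was -1.003, and -0.46 with the GC trend removed.

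**Figure D3:**
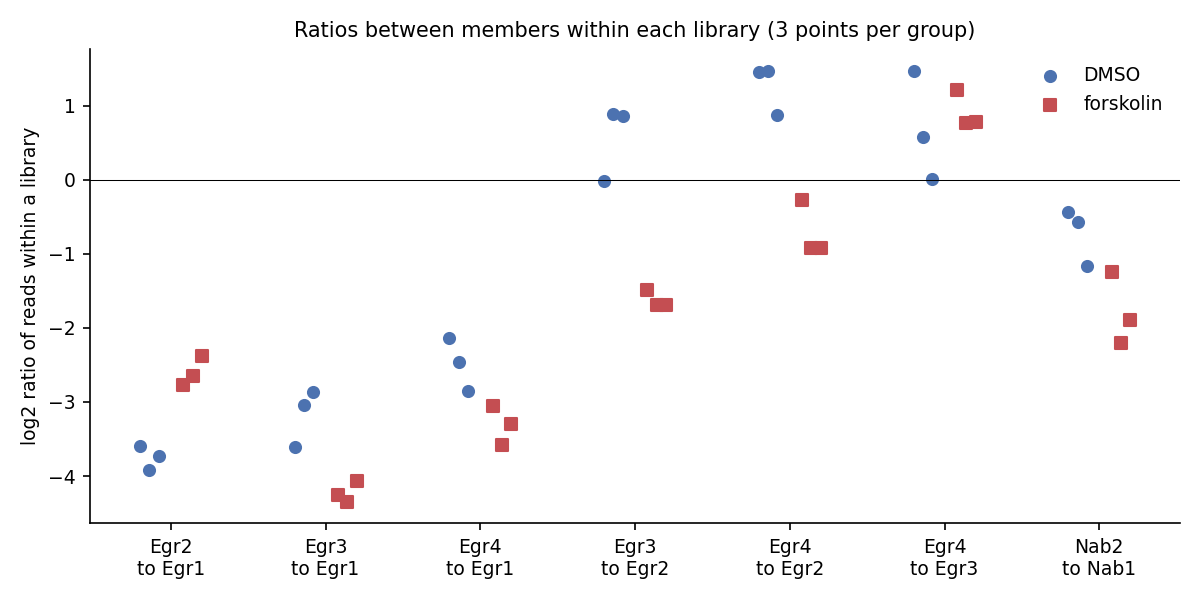
Log2 ratio of the reads of 2 members within the same library for 7 pairs, with DMSO libraries as blue circles and forskolin libraries as red squares (3 points per group; horizontal offsets within a group only separate points). The groups do not overlap for any pair but Egr4 to Egr3.

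Levels were set side by side after division by the length of each gene's longest annotated transcript. Shorter transcripts and GC content were not allowed for, so the order between genes is approximate. With DMSO, Egr1 stood first at 21.6 ± 5.11 CPM per kilobase (SD, n = 3), followed by Egr4 at 8.51 ± 4.01, Nab1 at 5.63 ± 0.785, Nab2 at 5.12 ± 0.666, Egr3 at 2.70 ± 0.211 and Egr2 at 2.48 ± 0.844. Egr1 was clear of Egr4, and Nab2 of Egr3, in every library, whereas Egr4 and Nab1, Nab1 and Nab2, and Egr3 and Egr2 overlapped. With forskolin the order was Egr1 at 33.5 ± 8.81 CPM per kilobase, Egr2 at 8.28 ± 1.80, Nab1 at 7.62 ± 1.28, Egr4 at 6.99 ± 1.37, Nab2 at 3.45 ± 1.28 and Egr3 at 2.01 ± 0.352. Egr2 had moved from last to second place, although its range overlapped with that of Nab1, and that of Nab1 with Egr4.

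Expressed as a share of the summed per-length level of the family, Egr2 made up 7.39, 6.17 and 7.34% with DMSO and 14.4, 16.3 and 18.5% with forskolin. Egr3 made up 8.04 ± 2.31% with DMSO and 4.0 ± 0.271% with forskolin, and Egr4 23.3 ± 4.74% and 13.9 ± 2.30% (SD, n = 3). Egr1 held most of the family's level in every library, from 59.1 to 68.0%. These shares depend on the transcript lengths of the annotation used, and they were not corrected for GC content. The fitted log2 fold change of Egr4 less that of Egr1 was -0.91, and 0.04 with the GC trend removed.

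**Figure D4:**
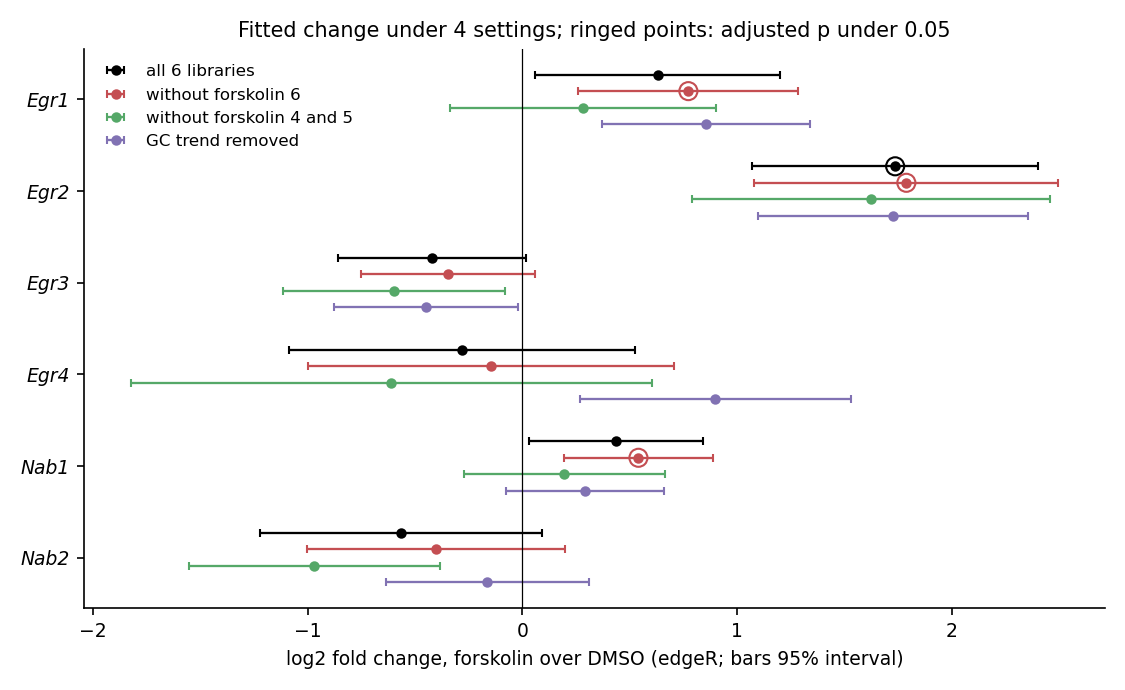
edgeR log2 fold change of each member, forskolin over DMSO, with its unadjusted 95% interval (horizontal bars), for all 6 libraries, without forskolin library 6, without forskolin libraries 4 and 5, and with the trend on GC content removed; a ring marks an adjusted p under 0.05. Egr2 lies between 1.62 and 1.79 in the 4 fits, whereas Egr4 goes from -0.28 to 0.90 once the GC trend is removed.

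GC content moved with the measured changes across all genes, and the members differ in it. Tested genes with 66 to 69% GC had a median log2 fold change of -0.87 (41 genes), and Egr4, at 68.2% GC, had -0.28. Genes of 57 to 60% GC had a median of -0.36, against 0.63 for Egr1, and genes of 60 to 63% had -0.55, close to the -0.57 of Nab2. Around Egr2 and Egr3 (51 to 54% GC) the median was -0.11, and around Nab1 (45 to 48%) it was 0.09. With each library's GC trend removed, the log2 fold changes were 0.86 for Egr1, 1.73 for Egr2, -0.45 for Egr3, 0.90 for Egr4, 0.29 for Nab1 and -0.16 for Nab2. Egr4 changed its sign under this correction, but it has a GC percentile of 99.8, where few genes guide the trend. Nab2 lost most of its difference. None of the 6 passed in that fit (edgeR adjusted p = 0.137 for Egr2 and 0.259 to 0.702 for the rest), in which 0 genes were called in all. There 1816 genes (11.2%) had an unadjusted p under 0.05, 5.63% of all genes as higher and 5.56% as lower. Among the members, Egr1, Egr2 and Egr4 were higher and Egr3 lower at that level. With library 6 also left out, Egr1 (0.87, edgeR adjusted p = 0.0146) and Egr2 (1.69, edgeR adjusted p = 0.00566) passed in a fit that called 41.6% of genes and had a median log2 fold change of -0.18.

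**Figure D5:**
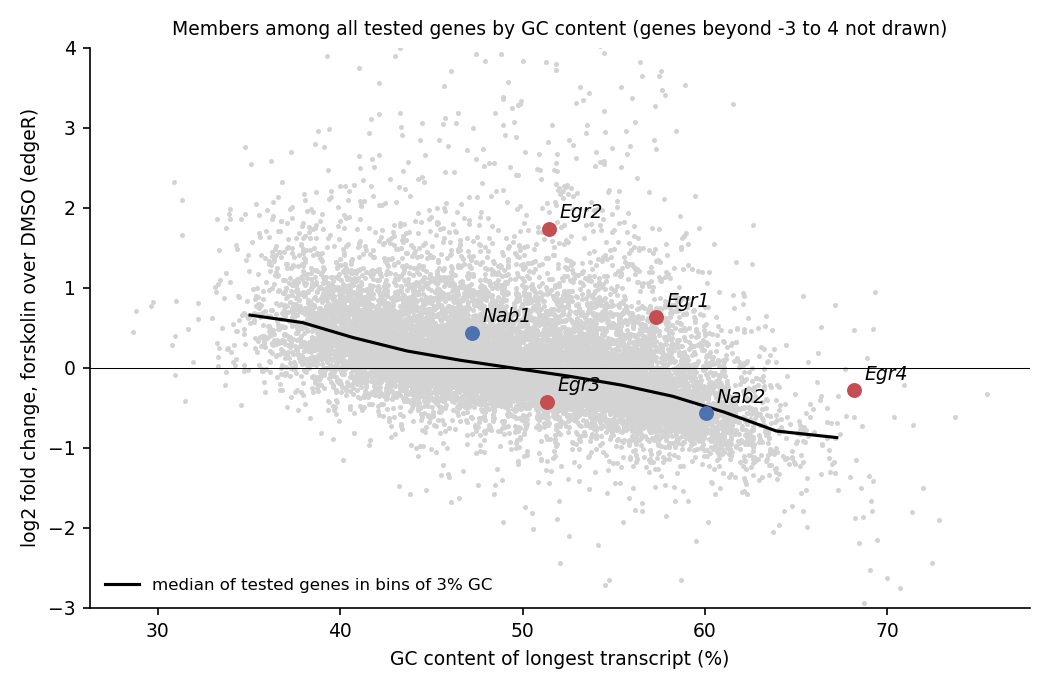
edgeR log2 fold change (forskolin over DMSO) against the GC content of each gene's longest transcript, with tested genes in grey, Egr genes in red, Nab genes in blue and the median of genes in bins 3% wide as a black line (bins of at least 20 genes). The line falls from 0.66 at the lowest GC content to -0.87 at the highest; Egr1, Egr2, Egr4 and Nab1 lie above it, Egr3 below it and Nab2 on it.

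Other rapid primary response genes give the scale of the response. Of a list of 11, 6 passed as higher and 0 as lower with edgeR, where 0.172% of all genes passed as higher, and the median log2 fold change was 2.40, against 0.02 for all tested genes; Egr2, at 1.74, was below that median. As for Egr2, none of these calls remained with the GC trend removed or without library 1, 2, 3, 4 or 5, in edgeR fits that called 0 genes in all. In these fits 8 to 11 of the 11 were higher at an unadjusted p under 0.05, against 4.76 to 9.97% of all genes. With library 6 as the single forskolin library, the median log2 fold change of the list was 1.8. More were called by DESeq2 (8 of 11), by edgeR without library 6 (9 of 11, where 16.5% of genes were called higher) and with library quality weights (11 of 11, where 41.9% of genes were called). The largest fitted changes among the called genes were those of Klf4, a Kruppel-like factor, at 4.67, Maff, a small Maf factor, at 3.71, Fosb, a subunit of AP-1, at 3.38, and Dusp1, a phosphatase that switches off MAP kinases, at 2.52. Fos, another AP-1 subunit, rose by 2.46 on the log2 scale (edgeR adjusted p = 0.0376). Nr4a1, an orphan nuclear receptor, had 2.20 (edgeR adjusted p = 0.0653), and Npas4, a neuronal activity factor, had 1.38 (edgeR adjusted p = 0.219). Neither passed in edgeR on all 6 libraries; Nr4a1 was called by DESeq2, by edgeR with no filter on low counts or without library 6, and with quality weights, and Npas4 with quality weights. In library 6 the list's median lay 1.76 above the DMSO mean on the log2 scale, against 2.55 and 2.61 in libraries 4 and 5.

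Genes that act before and with the EGR proteins were called or not depending on the method and the libraries used. On the route from ERK kinases to Elk and SRF, 0 of 19 genes passed with edgeR on all 6 libraries, 1 was higher and 3 lower at an unadjusted p under 0.05, and DESeq2 called 1 higher and 2 lower (median log2 fold change -0.09). The genes DESeq2 called were Rap1a, a small GTPase on the cyclic AMP route to ERK, as higher, and Srf, the factor of the CArG box, and its actin-regulated partner Mkl1 as lower. In edgeR they had log2 values of 0.75 (adjusted p = 0.164), -0.45 (0.125) and -0.59 (0.0595). Without library 6, edgeR called 2 of the 19 higher and 7 lower, these 3 genes among them, and with library size alone it called Mkl1. Of 13 NuRD genes, 0 passed with edgeR on all 6 libraries, and 0 were higher and 5 lower at an unadjusted p under 0.05. At that level 10.6% of all genes were higher and 11.7% lower. With the GC trend removed, 0 of the 13 were higher and 2 lower, against 5.63% and 5.56% of all genes. DESeq2, which called 4.9% of all genes higher and 6.03% lower, called Mta1 lower, as did edgeR with library size alone. Without library 6, edgeR called 4 of the 13 lower. Of the 5 genes for Sp factors and Wt1, which bind similar GC-rich sites, 0 passed with edgeR or DESeq2 on all 6 libraries and 1 was higher at an unadjusted p under 0.05; without library 6, edgeR called Sp1 and Sp3 higher. In that fit 16.5% of all genes were called higher and 17.1% lower. With the GC trend also removed, 0 of the 5 Sp and Wt1 genes were called, and their median log2 fold change was -0.17. Of the NuRD genes, 8 were then called lower and 0 higher, and of the route genes 9 lower and 1 higher. Among all genes, 12.5% were called higher and 29.1% lower there. With quality weights on all 6 libraries, limma called 3 of the 19 route genes higher and 6 lower, 5 of the 13 NuRD genes lower, and Sp1 and Sp3 higher. The fit with quality weights called 21% of all genes higher and 20.9% lower.

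The calls among reported targets of EGR proteins also depended on the method and the libraries. Of 25 genes listed, 23 had enough reads, and of these 0 passed with edgeR. At an unadjusted p under 0.05, 2 were higher and 6 lower, against 10.6% and 11.7% of all genes, and the median log2 fold change was -0.0045. With the GC trend removed, 3 were higher and 2 lower at that level, against 5.63% and 5.56% of all genes. DESeq2 called Arc higher and Ache and Pdgfb lower, in a fit that called 4.9% of all genes higher and 6.03% lower. With library quality weights, where 41.9% of all genes were called, 6 of the 23 were higher and 9 lower. Arc, which acts at synapses and is a known target of Egr1 and Egr3 as well as an immediate early gene, had 58.3 ± 28.6 CPM with DMSO and 187.9 ± 22.1 CPM with forskolin (SD, n = 3). Its log2 fold change of 1.69 did not pass (edgeR adjusted p = 0.0660), but it did in edgeR with no filter on low counts. Without library 6, where 33.6% of all genes were called, 6 of 24 tested targets were called higher and 8 lower. The microglia markers were high and the neuron markers low in the 2 forskolin libraries that remain there, and their part in these calls was not tested.

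The genes whose log2 CPM ran most like each member over the 6 libraries were sought among 11307 genes with a mean of at least 5 CPM. For Egr2 they were Fam114a2 (Pearson r = 0.993), Fosb (0.991) and R3hcc1l (0.985), and for Egr1 they were Hjurp (0.997), Lap3 (0.988) and Cyp4f16 (0.982). For Egr3 they were Bcl11b (0.976), Polr3d and Fam96b (0.973 each), and for Egr4 Rcc1 (0.978), Vtn and Mecr (0.975 each). Nab1 ran closest to G2e3 (0.999), Yes1 and Nbn (0.998 each), and Nab2 to Zscan25 (0.990), Snhg8 (0.985) and Col26a1 (0.983). No member was among the closest genes of another. With 6 libraries and this many genes searched, such coefficients describe these libraries only.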

How the data were processed

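Per the labels' protocols, Trizol and chloroform were used for RNA extraction before Illumina library preparation. Counts were deposited by the authors as unscaled whole numbers for each gene symbol and library; Salmon, DESeq and the GRCm38 build are named in the submitters' processing notes, without role or version, so the counts may be rounded estimates. Their second table holds, per the file headers, the mean normalised count as a signal, log2 fold changes and errors, the statistic of the test as a score, and each p-value before and after adjustment.

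Genes were kept with filterByExpr (minimum count 10, minimum total 15), which left 16233. R 4.3.3 with edgeR 4.0.16 was used: TMM factors, group as the only term, glmQLFit and glmQLFTest, Benjamini-Hochberg adjustment over all tested genes, threshold 0.05; the procedure was tested on simulated data. limma 3.58.1 and DESeq2 1.42.0 served as alternatives, beside other scalings, filters, a robust prior, removal of a spline trend on GC content (6 degrees of freedom; GC of the longest GENCODE M21 transcript, known for 97.1% of tested genes) and leaving out libraries. Standard errors are the absolute log2 fold change over the square root of F. CPM uses TMM-scaled library sizes; log2 CPM used a prior count of 2, and list medians per library a pseudocount of 0.1 CPM. Total counts were 28342764 to 47548379; the smallest member count, 168 for Egr2, has a counting error of 7.72%, below the spread between libraries. No libraries agreed within sampling noise (chi-square per degree of freedom 33.2 or more). Members, lists and tests were chosen with earlier results of these data known. All 6 members were named; list genes were named if called (at most 4 per direction) beside Fos, Nr4a1, Arc and Npas4; and for each member the 3 closest genes by Pearson r.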

Additional observations from a re-analysis of the deposited data

How the results depend on the processing

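Egr1, Egr2, Egr3, Nab1 and Nab2 kept their sign under all 18 alternatives. With all 6 libraries, Egr2 no longer passed with upper-quartile factors (log2 fold change 1.78, edgeR adjusted p = 0.0543) or with the GC trend removed (1.73, 0.137). Leaving out 1 library gave Egr2 1.58 to 2.07, Egr1 0.44 to 0.86 and Nab1 0.35 to 0.54, Nab2 -0.91 to -0.40, and without forskolin libraries 4 and 5 (1 forskolin library left), chosen after seeing the data, Egr2 had 1.62. Library quality weights in limma-voom passed Egr1 (0.87, adjusted p = 0.0130) and Nab1 (0.58, 0.0131). Egr1 also passed with the GC trend removed and without library 6 (0.87). Egr4 turned positive without DMSO library 1 (0.18), with quality weights (0.011), with the GC trend removed (0.90) and with that and without library 6 (0.69); without single libraries it ranged from -0.54 to 0.18. The cause of these shifts was not tested. The number of genes called was 245 with all libraries, 1775 with DESeq2, 6795 with quality weights, 137 with RLE factors, 102 with upper-quartile factors, 0 with the GC trend removed (1816 at an unadjusted p under 0.05), 7040 with that and without library 6, and 94 without libraries 4 and 5; without single libraries it ranged from 0 to 5698. Of the 245 calls, 28 were higher; of the 1775, 796. No paired analysis was possible because the libraries are numbered 1 to 6 across the groups. With 3 libraries a group, exact permutation tests cannot go below 0.1.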
